A study of Mus musculus with 4 samples.

Results

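The leukocyte integrins and their adhesion ligands were followed on 4 arrays of mouse microglia as 10 named genes: the integrin alpha subunits Itgam, Itgax, Itgal, Itga4, Itga5 and Itgav, the beta subunits Itgb2 and Itgb1, and the counter-receptors Icam1 and Vcam1. They were matched by gene symbol among 19938 genes with a value, and this choice of genes was made with earlier results of these data known. Each of the 10 had 1 probe set that carried no other symbol. RNA was hybridised to Affymetrix Mouse Gene 1.0 ST arrays, 1 array for each of 4 groups. The groups were wild-type C57Bl microglia without treatment, wild-type C57Bl microglia with lipopolysaccharide (LPS) for 3 h, microglia labelled Bid-/- without treatment, and microglia labelled Bid-/- with LPS for 3 h. The labels state no strain for Bid-/- cells, no age or sex for any animal, and no count of the cultures or animals behind an array. The cell type is labelled microglial on all 4 arrays.

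Integrins are cell surface receptors made of 1 alpha and 1 beta chain, and they bind matrix proteins or Ig-family ligands on other cells. The beta2 chain, Itgb2, is found on leukocytes, where it pairs with alphaL to form LFA-1, with alphaM to form Mac-1 (CD11b/CD18, the complement receptor CR3 long used to identify microglia) and with alphaX to form CD11c/CD18. Icam1 is the main ligand of LFA-1 and is also bound by Mac-1, while Vcam1 is the main cellular ligand of alpha4beta1 (VLA-4). Integrins with alpha5 or alphaV bind fibronectin, and those with alphaV also vitronectin and other proteins, through the Arg-Gly-Asp motif. LPS is a bacterial cell wall component sensed by TLR4, and Bid is a BH3-only member of the Bcl-2 family.

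The upstream sequence is shown for the 2 genes with the highest mean LPS difference among the 10, Icam1 and Itga5, and for Itgam, whose value moved little, so that the letters in front of each can be set beside the values below. Each run is the 250 bases before the annotated start, 5′ to 3′ on the gene's own strand, from RefSeq on GRCm38.p6, and capitals mark matches on either strand to the motifs named after them. The Icam1 window is chr9:21015690-21015939 (+ strand), the Itga5 window chr15:103366792-103367041 (- strand) and the Itgam window chr7:128062390-128062639 (+ strand).
Icam1: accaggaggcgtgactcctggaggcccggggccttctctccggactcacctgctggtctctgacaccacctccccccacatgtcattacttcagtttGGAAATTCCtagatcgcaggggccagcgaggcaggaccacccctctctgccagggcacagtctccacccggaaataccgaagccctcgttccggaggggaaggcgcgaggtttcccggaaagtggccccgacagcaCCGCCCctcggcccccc
Itga5: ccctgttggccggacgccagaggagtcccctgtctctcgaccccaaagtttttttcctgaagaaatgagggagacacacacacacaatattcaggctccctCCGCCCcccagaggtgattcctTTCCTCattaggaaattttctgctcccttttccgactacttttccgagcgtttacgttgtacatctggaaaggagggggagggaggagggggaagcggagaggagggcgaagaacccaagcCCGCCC
Itgam: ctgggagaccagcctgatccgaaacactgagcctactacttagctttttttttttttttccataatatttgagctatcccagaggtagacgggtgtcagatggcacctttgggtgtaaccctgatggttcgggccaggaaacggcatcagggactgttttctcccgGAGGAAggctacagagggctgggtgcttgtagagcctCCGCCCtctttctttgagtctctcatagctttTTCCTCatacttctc
The letters searched were GGAAATTCC (a form of the NF-kB site), TGANTCA (AP-1), GAGGAA (the core bound by PU.1 and other ETS factors) and GGGCGG (the GC box). Of 32851 windows of the same length in the table, 0.286% held GGAAATTCC. TGANTCA was present in 6.75% of windows, GAGGAA in 23.3% and GGGCGG in 32.7%. Icam1 held GGAAATTCC from 153 to 145 bases before the start and a GC box from 17 to 12. Itga5 held 1 GAGGAA match, from 127 to 122 bases before the start, and 2 GC boxes. Itgam held GAGGAA from 84 to 79 and from 15 to 10 bases before the start, and a GC box. In all, 7 of the 10 genes were in the promoter table, all but Itgal, Itgb2 and Vcam1. Of these 7, GGAAATTCC was found in 1 (Icam1), TGANTCA in 1 (Itgax), GAGGAA in 4 and GGGCGG in 5. Only 1 fixed form of the NF-kB site was searched, so other forms of it were not counted in any window. A match describes the letters of the window and is not evidence of binding.

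The arrays carried the LPS label in their values, with limits on the cell type and genotype labels. Il6, Tnf, Nfkbia and Il1b were each at least 2-fold higher with LPS under both labels. The floor used here was a log2 value of 4.26 (the median probe set). All 11 microglial markers with a value, among them Csf1r, Aif1, Adgre1 and Cx3cr1, reached it on at least 1 array. P2ry12 did so only without LPS, at 4.33 (WT) and 4.38 (labelled Bid-/-), and read 3.91 and 3.9 with LPS. Tmem119 read 5.12 to 5.83. All 8 neutrophil markers stayed below the floor, as did 6 of 7 lymphocyte markers and 6 of 7 neuronal markers. Of other lists, Gfap, Aqp4, Kdr, Tek and Ccr2 stayed below the floor. It was reached by 2 of 8 markers of monocytes and border macrophages, Pf4 (8.16 to 9.63) and Ms4a7 (9.31 to 9.83). It was also reached by 5 of 7 oligodendrocyte lineage, 5 of 9 endothelial, 6 of 8 astrocyte and 10 of 12 fibroblast and mural markers. Bid itself, which the label says is absent, read 5.69 and 5.02 on the untreated and LPS wild-type (WT) arrays and 5.53 and 5.97 on those labelled Bid-/-. The labels do not place its probes against the deleted part, so this probe set may not test the label at all. The Y-linked gene Uty was 0.91 (untreated) and 1.61 (LPS) higher on the arrays labelled Bid-/-, so sex, background, culture and Bid cannot be told apart between the labels. None (0) of the 10 genes lies on chromosome 6, which holds Bid. Longer genes tended to read higher on the labelled Bid-/- than on the WT array with LPS (Spearman rho of difference and gene span 0.399 over 11037 genes, which share the same 2 arrays, against 0.138 for the untreated pair). The LPS difference itself had a rho of -0.195 with span in WT and 0.103 under the Bid-/- label, so these values do not say which LPS array departs. Values with trends in intensity and span removed are therefore given where they bear on a result.

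Of the 10 genes, Itgax alone had no usable level. The plot of the 4 arrays shows each value. Itgax, the alphaX chain of CD11c/CD18, read 3.06 and 3.23 on the untreated and LPS WT arrays and 3.38 and 3.44 on those labelled Bid-/-. All 4 values lay below the floor, so its differences are not interpreted and 9 of the 10 genes entered the comparisons. Values here are log2 expression, differences are on the log2 scale (a value of 1 is 2-fold), and levels of different probe sets are not ranked against each other.

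**Figure D1:**
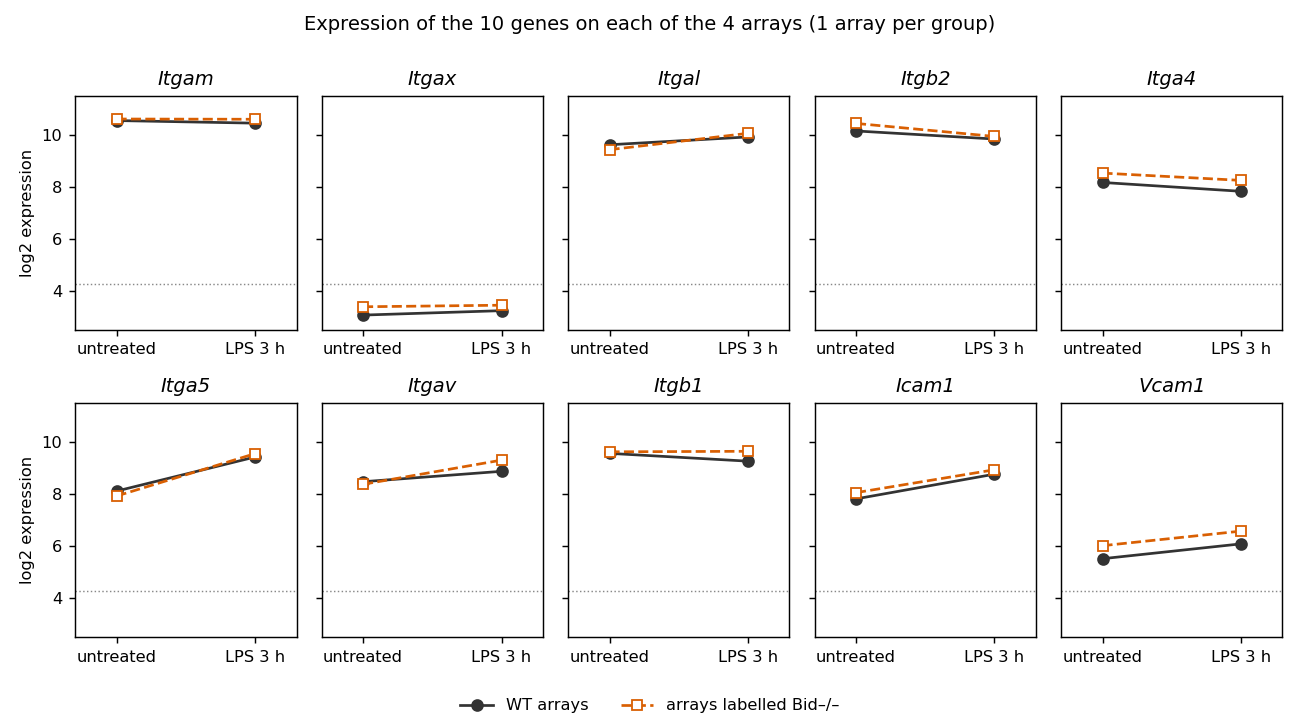
Log2 expression of the 10 genes, 1 panel per gene, on the untreated and LPS arrays of each genotype label (filled circles and solid lines, WT; open squares and dashed lines, labelled Bid-/-). Each point is 1 array with no error bar, and the dotted line is the floor of 4.26. Itga5, Icam1 and Vcam1 read higher on both LPS arrays, Itgam stayed between 10.44 and 10.60, and Itgax lay below the floor throughout.

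In the deposited values, Itga5 was the only one of the 10 genes at least 2-fold changed with LPS under either label. It was also the only one to pass the fit over both labels. By the mean over both labels, Icam1 came next, just under 2-fold, followed by Itgav, Vcam1 and Itgal with smaller positive differences. Under the Bid-/- label alone, Itgav (0.93) lay above Icam1 (0.88), and Itgal (0.63) above Vcam1 (0.56). The chain Itgb2 was somewhat lower, and Itgam stayed within 0.10 of its untreated value under each label. So 1 of 9 genes was 2-fold changed on the WT arrays, where 4.47% of 11129 genes were, and 1 of 9 on the arrays labelled Bid-/-, where 4.35% of 10995 were. The 1.5-fold threshold gave 2 genes in WT (Itga5 and Icam1, background 16.9%) and 4 under the Bid-/- label (these with Itgav and Itgal, background 17.3%). The median LPS difference of the 9 genes was 0.30 in WT and 0.56 under the Bid-/- label, beside -0.05 and -0.09 for all 11326 genes at the floor. Both LPS arrays read above both untreated arrays for 5 of the 9 (Itgal, Itga5, Itgav, Icam1 and Vcam1; background 20.2%) and below both for 1 (Itgb2; background 35.4%). Each pair of arrays lacks a replicate check. The p-values below come from an additive limma fit over the labels, adjusted over 11326 genes. Its error has 1 residual degree of freedom per gene and is moderated across genes. In this fit 1 of the 9 passed as higher (background 1.68%) and 0 as lower (background 1.56%), while 6 of the 9 had an unadjusted p under 0.05 (background 28.8%).

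Among the alpha chains of matrix-binding integrins, Itga5 rose. Itga5, which pairs with beta1 as the classical fibronectin receptor, read 8.12 without and 9.43 with LPS in WT, and 7.93 and 9.56 under the Bid-/- label. Both LPS arrays lay more than 2-fold above both untreated arrays. The differences were 1.31 (2.48-fold) and 1.63 (3.10-fold), with a mean of 1.47 ± 0.16 (SE; limma adjusted p = 0.0392). Only 1.46% of genes on the WT arrays and 0.946% on the other pair had a difference as high. That call was lost when genes below the floor were kept in the fit (limma adjusted p = 0.117). The limma adjusted p ranged from 0.000494 to 0.117 over the settings of the fit, which did not include median centring or trend removal. The genes with the closest 4-array profile, measured as Euclidean distance after subtracting the untreated WT value, were Heca (distance 0.142), Tnip1, which encodes an A20-binding inhibitor of NF-kB (0.155), and Tpbg (0.171). Their LPS differences were 1.35 and 1.80 for Heca, 1.31 and 1.52 for Tnip1, and 1.20 and 1.52 for Tpbg (WT, then Bid-/- label).

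Itgav, the alphaV chain shared by vitronectin receptors and by integrins that activate latent TGF-beta, read 8.48 and 8.88 in WT and 8.38 and 9.31 under the Bid-/- label. It was higher with LPS under both, by 0.40 and 0.93, and the mean of 0.67 ± 0.19 did not pass (limma adjusted p = 0.125). It passed after quantile normalization (limma adjusted p = 0.0412), and the adjusted p ranged from 0.041 to 0.224 over the settings of the fit. Itga4, the alpha chain of VLA-4, read 8.16 and 7.82 in WT and 8.52 and 8.24 under the Bid-/- label. Its LPS differences of -0.34 and -0.28 did not pass (limma adjusted p = 0.256), and the 2 LPS values overlapped the untreated ones.

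The common partner of these chains, Itgb1, did not share the LPS difference of Itga5. Itgb1 read 9.57 and 9.27 in WT and 9.63 and 9.65 under the Bid-/- label, a difference of -0.30 and 0.02 (limma adjusted p = 0.612). The LPS difference of Itga5 minus that of Itgb1 was 1.61 under each label. For Itga4 minus Itgb1 it was -0.04 and -0.30. These pairs were set side by side after their values were seen, and they describe RNA, not surface receptor.

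Of the leukocyte beta2 integrins, the alphaL chain and the beta2 chain differed with LPS in opposite directions, without passing the fit. Itgal, the LFA-1 alpha chain, read 9.61 and 9.91 in WT and 9.42 and 10.05 under the Bid-/- label, 0.30 and 0.63 higher with LPS (limma adjusted p = 0.151). Itgb2, the chain common to the family, read 10.14 and 9.83 in WT and 10.43 and 9.93 under the Bid-/- label, a difference of -0.31 and -0.50 (limma adjusted p = 0.151). The LPS and untreated values of each gene did not overlap (background 20.2% for higher, as Itgal, and 35.4% for lower, as Itgb2). A difference as high as that of Itgal was seen for 16.8% of genes in WT and 6.21% under the Bid-/- label. One as low as that of Itgb2 was seen for 27.5% and 15.1%. The LPS difference of Itgal exceeded that of Itgb2 by 0.61 in WT and 1.13 under the Bid-/- label. Itgam, the CD11b chain, read 10.54, 10.44, 10.60 and 10.59 on the WT untreated, WT LPS, labelled Bid-/- untreated and labelled Bid-/- LPS arrays. Its differences of -0.10 and -0.01 (mean -0.055 ± 0.12 SE) were small, and the second turned to 0.02 after removal of intensity and span trends. Itgam, Itgax and Itgad, the alphaD chain, follow each other on chromosome 7 with 0 protein-coding genes between neighbours, and Itgad was 0.09 and 0.17 higher with LPS. Itgal lies on the same chromosome, 35 protein-coding genes from Itgam.

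The ligands Icam1 and Vcam1 were both higher with LPS, by nearly the same amount under each label. Icam1, a ligand of LFA-1 and Mac-1, read 7.82 and 8.77 in WT and 8.06 and 8.94 under the Bid-/- label. Both LPS values lay above both untreated values. The differences of 0.95 (1.93-fold) and 0.88 (1.84-fold) had a mean of 0.92 ± 0.15 (SE) and missed the threshold (limma adjusted p = 0.0576). That limma adjusted p ranged from 0.00548 to 0.136 over the settings of the fit. After removal of intensity and span trends, both differences were 1.00, at the 2-fold line. The related genes Icam4 and Icam5, next to Icam1 on chromosome 9 with 0 protein-coding genes between them, stayed below the floor on all 4 arrays.

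Vcam1, the VLA-4 ligand, read 5.52 and 6.09 in WT and 6.02 and 6.58 under the Bid-/- label. It was 0.57 and 0.56 higher with LPS, with a mean of 0.57 ± 0.12 SE (limma adjusted p = 0.0765). It passed after quantile normalization (limma adjusted p = 0.0098, with a range of 0.0098 to 0.161 over the settings of the fit). Vcam1 is also made by endothelium, astrocytes and fibroblasts, and in bulk RNA a change in the number of such cells and in RNA per cell cannot be told apart. The 12 fibroblast and mural markers had mean log2 levels of 5.31 and 5.94 on the untreated and LPS WT arrays and 5.87 and 5.74 on those labelled Bid-/-; Lum and Mgp stayed below the floor. Their median LPS difference, over the 10 at the floor, was 0.69 in WT and -0.085 under the Bid-/- label. Of these 10, 9 were above 0 in WT and 3 under the Bid-/- label, and Pdgfrb was 0.76 and 1.11 higher. Of the endothelial markers 5 of 9 reached the floor, with mean levels of 3.98, 4.17, 4.06 and 4.18 in the same order of arrays. Astrocyte markers, of which 6 of 8 reached it, averaged 4.19, 4.39, 4.22 and 4.21. The part of these cells in the Vcam1 values was not tested.

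**Figure D2:**
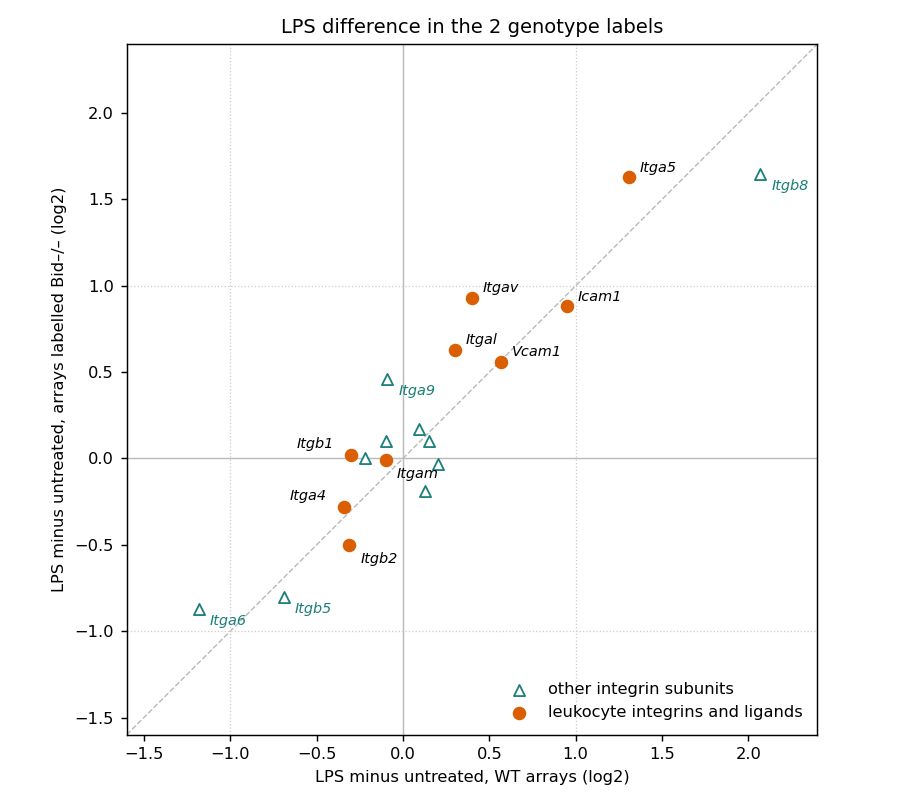
LPS difference on the WT arrays (x axis, log2) against that on the arrays labelled Bid-/- (y axis, log2) for the 9 genes at the floor (filled circles) and the 10 other integrin subunits at the floor (open triangles). Each point is 1 gene from 4 arrays; dotted lines mark 2-fold and the dashed line equality. Itga5 and Itgb8 lie beyond 2-fold under both labels, and Itgb2, Itga4, Itgam, Itgb5 and Itga6 lie below 0 under both.

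Among the other integrin subunits, Itgb8 rose. Of 18 with a value, 10 reached the floor; 1 passed the fit as higher (background 1.68%) and 0 as lower (background 1.56%). Itgb8, the beta chain that with alphaV releases active TGF-beta from its latent complex, read 5.77 and 7.84 in WT and 5.19 and 6.84 under the Bid-/- label. It was 2.07 and 1.65 higher with LPS (limma adjusted p = 0.0309), and 0.58 and 1.00 lower on the arrays labelled Bid-/- than on WT without and with LPS. Itga6, a laminin receptor chain, had LPS differences of -1.18 and -0.87 and did not pass (limma adjusted p = 0.0527). Itgb5, another partner of alphaV and named here after its values were seen, had differences of -0.69 and -0.80 (limma adjusted p = 0.0701). Against alphaV, the LPS difference of Itgav minus Itgb5 was 1.09 and 1.73, and that of Itgav minus Itgb8 was -1.67 and -0.72. The beta3 and beta6 chains, Itgb3 and Itgb6, stayed below the floor.

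**Figure D3:**
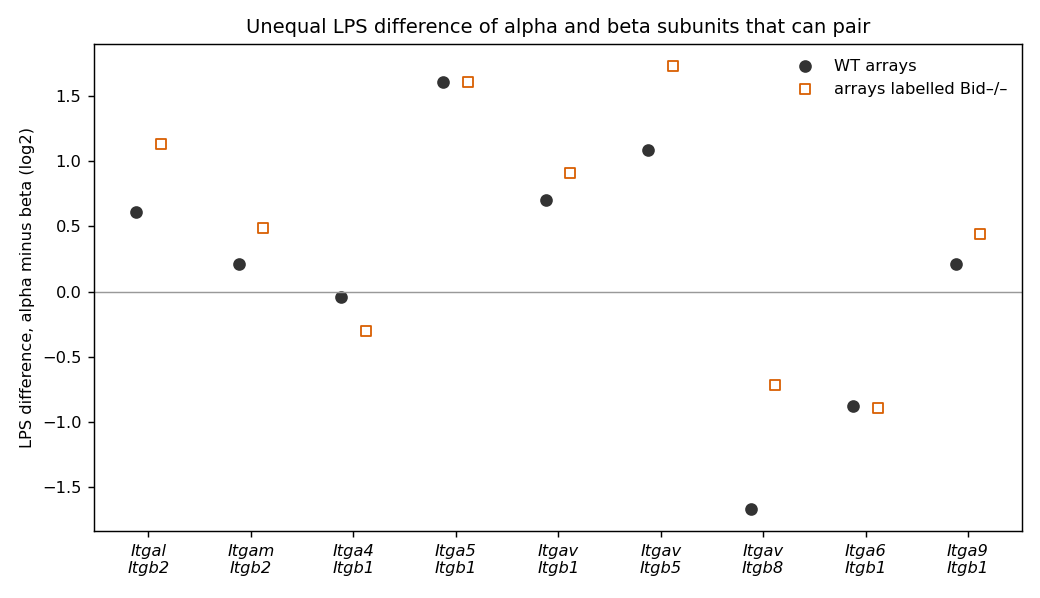
LPS difference of an alpha chain minus that of a beta chain it can pair with (y axis, log2), for 9 pairs named under the x axis, on the WT arrays (filled circles) and on the arrays labelled Bid-/- (open squares). Each point comes from 2 arrays without error bars. Itga5 exceeded Itgb1 by 1.61 under both labels, and Itgav lay above Itgb5 and below Itgb8.

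The adhesion machinery around these receptors moved in single genes. Of 17 other adhesion receptors and counter-receptors with a value, 11 reached the floor, with a median LPS difference of 0.03 under each label. Cd44, the hyaluronan receptor, rose by 1.34 and 1.27 (limma adjusted p = 0.0383), the 1 gene of this list to pass (background 1.68% higher and 1.56% lower). Alcam, a CD6 ligand, was 0.83 and 1.09 higher (limma adjusted p = 0.0588). Of 33 activation and linkage genes with a value, 30 reached the floor and 2 passed, 1 as higher and 1 as lower, against the same background. Src, a kinase acting downstream of integrins, rose by 1.46 and 1.52 (limma adjusted p = 0.0298). Rassf5, which encodes the Rap1 effector RAPL that promotes LFA-1 activation, fell, with differences of -1.01 and -0.96 (limma adjusted p = 0.0379). Zyx, the focal adhesion protein zyxin, was 1.00 and 0.52 higher and did not pass (limma adjusted p = 0.0929). The direct integrin activators Tln1 (-0.27 and 0.12) and Fermt3 (-0.27 and -0.15), talin and the kindlin of blood cells, had small differences. The calls for Itgb8, Cd44, Src and Rassf5, like that for Itga5, were lost without a floor, where the limma fit called 0 genes, with 3751 at an unadjusted p under 0.05.

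Between the genotype labels, none of the 9 genes differed by 2-fold. The count was 0 of 9 without LPS (background 0.431%) and 0 of 9 with LPS (background 0.815%), and it was also 0 at 1.5-fold in both (background 1.89% and 10.8%). The fit called 0 of the 9 for the label, and 0 of 11326 genes (background 0.0%). Without adjustment, 1 of the 9 (Vcam1) and 709 genes (6.26%) had a limma p under 0.05. Vcam1 read 0.50 and 0.49 higher on the arrays labelled Bid-/- without and with LPS (limma adjusted p = 0.623, with an unadjusted p of 0.0123). Of the 10 fibroblast and mural markers at the floor, 8 were above 0 in the untreated comparison (median 0.60). With LPS 6 were above and 4 below 0 (median 0.17, and 0.036 with the trends removed). Their part in the Vcam1 difference was not tested. Itga4 was 0.36 and 0.42 higher (limma adjusted p = 0.623), and the second value was 0.19 after removal of intensity and span trends.

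With LPS, all 9 genes read higher under the Bid-/- label than in WT, where 50.9% of 11044 genes did. The differences ran from 0.10 (Itgb2) to 0.49 (Vcam1), with a median of 0.17. With the trends removed they ran from 0.03 (Itgb2) to 0.46 (Vcam1). Itgav, at percentile 86.1 of gene span, went from 0.43 to 0.25 and Itgb1 from 0.38 to 0.26. Without LPS, 6 of the 9 were higher (background 51.6%) and the median was 0.06. Both arrays labelled Bid-/- lay above both WT arrays for 3 of 9 genes (Itgam, Itga4 and Itgb1; background 12.4%) and below both for 0 (background 14.6%).

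**Figure D4:**
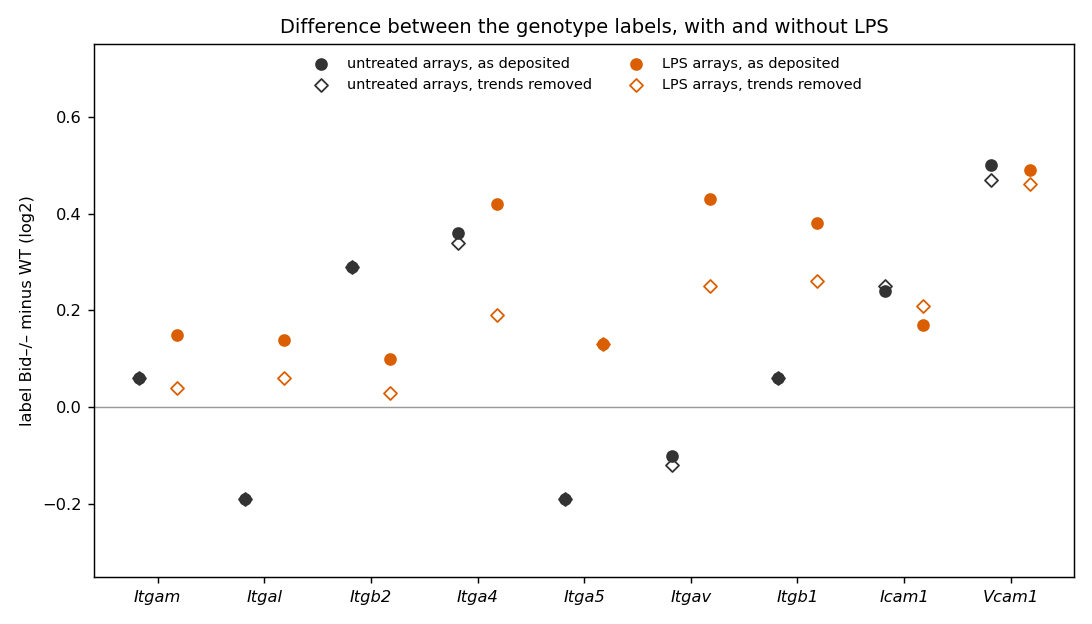
Difference between the genotype labels, labelled Bid-/- minus WT (y axis, log2), for the 9 genes at the floor on untreated arrays (dark) and LPS arrays (orange). Filled circles are the deposited values and open diamonds the values after removal of intensity and span trends; each point compares 2 arrays. All orange points lie above 0, from 0.10 to 0.49 as deposited, and Vcam1 lies near 0.5 in both conditions.

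The LPS response of the 9 genes was not 2-fold different between the labels for any of them (0 of 9, background 0.786%). At 1.5-fold the count was also 0 (background 9.31%). The largest difference of response, Bid-/- label minus WT, was 0.53 for Itgav, followed by 0.33 for Itgal and 0.32 each for Itga5 and Itgb1. After removal of intensity and span trends these were 0.37, 0.27, 0.30 and 0.23. Icam1 (-0.07) and Vcam1 (-0.01) responded by almost the same amount under both labels. With 4 arrays this difference has no residual degrees of freedom and was not tested.

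Matrix ligands of the beta1 and alphaV integrins read higher on the untreated array labelled Bid-/-. Of 25 with a value 18 reached the floor, and 6 of the 18 were at least 2-fold higher there, with 0 lower and a median of 0.54 (background 0.431% in either direction). Of these, Tnc (tenascin-C) was 1.54 higher, Ccn1 1.36, Fn1 (fibronectin, the alpha5beta1 ligand) 1.23, Nid1 1.17, Thbs1 (thrombospondin-1) 1.14 and Ccn2 1.11. With LPS the median label difference was 0.195, and 0 of the 18 were 2-fold higher (background 0.815% in either direction). Thbs1, named beyond the rule's 5 genes to complete the count, was nearest the line at 0.97, and read 1.05 with the trends removed. Fn1 read 5.76 and 6.94 on the untreated and LPS WT arrays and 6.99 and 7.45 on those labelled Bid-/-, 1.18 and 0.46 higher with LPS (limma adjusted p = 0.111). The fibroblast and mural markers, which share Col1a1 with this list, had a median of 0.60 in the same untreated comparison, and their part in these differences was not tested.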

How the data were processed

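The authors deposited 1 table of log2 expression for 28944 probe sets on 4 arrays. Per the submitters' processing notes the tools were RMA, Affymetrix Expression Console and Partek 6.2, whose steps are not described. The file states no log base, which was inferred from the range of 1.4 to 13.5. Precision is limited by having 4 arrays. Gene names came from the platform annotation (21789 probe sets with 1 symbol, 1621 with several, 5534 with none), using the probe set with the highest mean per gene. Gene order, span and promoters came from RefSeq tables of GRCm38.p6. Differences were taken between arrays for genes whose higher array reached 4.26. The additive fit (genotype label and LPS) used limma 3.58.1 in R 4.3.3 (lmFit, eBayes with an intensity trend, Benjamini-Hochberg, threshold 0.05) and was tested on simulated data. Its error has 1 residual degree of freedom per gene and is moderated across genes, so an SE is not the spread of its gene alone. This error penalises genes whose response differs between labels. The labels do not say whether arrays came from separate cultures, so the spread may be technical. Trends were removed by lowess (fraction 0.3) in Python 3.11.15 with statsmodels 0.14.6. The genes, lists and rules were chosen with earlier results of these data known. Named were all 10 genes, up to 5 genes per other list past 2-fold in any comparison, by size, and the 3 closest profiles of genes 2-fold changed with LPS; others are marked or illustrate a list. The alternatives tried were quantile normalization, median centring, trend removal, averaged probe sets, no floor, a 1.5-fold threshold, no intensity trend in the fit, noise inside the rounding (half-width 0.005) and an adjusted p threshold of 0.1. The additive fit was not rerun with median centring or trend removal, so its ranges of adjusted p leave these out.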

Additional observations from a re-analysis of the deposited data

Results flagged for a closer look

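Itgb1, the beta1 chain, was the 1 gene of the 10 whose LPS difference had opposite signs under the 2 labels: -0.30 on the WT arrays and 0.02 on the arrays labelled Bid-/-. The difference between these responses was not tested, and the second value is close to 0.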

How the results depend on the processing

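No paired analysis was possible because the labels carry no replicate numbers; the additive fit has the genotype label as its only block, and leaving out an array was not run, since it leaves the fit no residual degrees of freedom. The count of 2-fold changed genes with LPS was 1 in WT and 1 under the Bid-/- label. In WT it became 2 after removal of intensity and span trends and 2 at 1.5-fold. Under the Bid-/- label it became 2 after quantile normalization, 2 with the intensity trend removed, 2 with both trends removed and 4 at 1.5-fold. At 2-fold, the gene added to Itga5 under the Bid-/- label was Itgav after quantile normalization (1.00) and with the intensity trend removed (1.01). With both trends removed it was Icam1 under each label (1.00). The counts between labels and for the difference of response stayed at 0 in every setting tried. The additive limma fit called 1 of the 9 genes and 367 genes in all. These became 4 and 1920 after quantile normalization, 4 and 2074 with noise inside the rounding, 3 and 1787 at an adjusted p threshold of 0.1, and 0 and 0 without a floor, where 6 of the 10 genes and 3751 genes had an unadjusted p under 0.05. With noise inside the rounding, the limma adjusted p of Itga5 went from 0.0392 to 0.000735. The number of calls thus depended on digits that the deposited values do not hold. Why the calls shifted was not tested. At 1.5-fold the counts over all genes were 1877 and 1898 with LPS (497 and 478 at 2-fold), 206 and 1188 between labels (47 and 90), and 1055 for the difference of response (89). Of 250 recomputed differences of the 10 genes, 6 changed sign, in 4 of 50 comparisons, none of them 2-fold: Itgam with LPS under the Bid-/- label (0.08 and 0.02 after trend removal) and the differences of response of Icam1 (0.03), Vcam1 (0.02 and 0.01) and Itga4 (-0.12). Averaging probe sets could change none of these differences, since each of the 10 genes has 1 probe set. Itgax is limited by its signal below the floor, and its differences are counted in the 250.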
